A study of Zea mays with 6 samples.

Results

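The genes described here carry names of the mitochondrial protein import machinery and of the mitochondrial carrier family in maize (Zea mays). They were chosen by words in the gene descriptions of the deposited count table. All are annotated as protein-coding, and the carrier gene LOC732804 was left out. This gave 151 of 34337 protein-coding genes and of 49785 genes in all. Kernels were collected at 13 days after pollination from field-grown plants, the outer maternal layer (pericarp) was peeled off, and total RNA was sequenced in 3 WT libraries (labelled wild-type) and 3 libraries of the mutant shrek1 (labelled Shrek1-/-). The sources used here do not give the plant or ear behind each replicate, nor the relation of WT to mutant kernels, so p-values measure the spread between these libraries. The mutated gene was not matched to a gene of the table, so the genotype labels were not checked against it.

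Most mitochondrial proteins are made in the cytosol and cross the outer membrane through the TOM complex. Proteins with a cleavable presequence then pass the TIM23 complex of the inner membrane, are pulled in by a motor built around mitochondrial Hsp70, and lose the presequence to the mitochondrial processing peptidase (MPP). Carrier proteins take another route. Small TIM chaperones bring them across the intermembrane space and TIM22 inserts them into the inner membrane, where they exchange ADP, ATP, phosphate and organic acids. Prohibitins form ring-shaped scaffolds in the same membrane.

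Across the 151 genes, mRNA of the import machinery and of the prohibitins was higher in shrek1, and mRNA of the carriers went both ways. Genes named for plastids, peroxisomes or the endoplasmic reticulum, which the word search also caught, were more often lower than higher. Of 63 genes of import and prohibitin roles, 52 were tested, 46 rose and 2 fell, with a median log2 fold change of 1.12. Of 61 mitochondrial carrier genes, 52 were tested, 18 rose and 10 fell (median 0.19). With library size as the only scaling, which moved the median of all genes from -0.01 to -0.30, these became 13 and 17 with a median of -0.10, against 42 and 3 with a median of 0.83 for the import and prohibitin roles. For the 27 genes named for another compartment the median was -0.21: 24 were tested, 6 rose and 10 fell. For comparison, 32.0% of all genes tested rose and 32.4% fell, so the share of carriers that rose was near that of all genes. "Rose" and "fell" mean an adjusted p under 0.05, where p came from the quasi-likelihood test of edgeR and was adjusted by Benjamini-Hochberg over the 22681 genes tested. The log2 fold changes are shrek1 over WT after TMM scaling (which sets library scales from the bulk of genes).

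Over all genes tested, 32.0% rose and 32.4% fell, with a median log2 fold change of -0.01. Of the 128 tested members, 70 rose (54.7%), 22 fell (17.2%) and 36 did not pass. Of 729 other tested protein-coding genes with mitochondrial names, 374 rose and 124 fell. Their median was 0.41, against 0.44 for the members. These medians are not of like sets, because that of the members includes genes named for another compartment (median -0.21). By role, the median was 1.12 for import and prohibitin genes, above that of mitochondrial-named genes, and 0.19 for mitochondrial carriers, below it. At least 2-fold changes were found upward for 39 members (30.5%, against 14.2% of all genes tested) and downward for 12 (9.38%, against 20.0%). Normalised read counts (CPM, scaled to a common library size) in shrek1 lay above every WT library for 76 members (59.4%, against 34.7% of all genes tested) and below every WT library for 24 (18.8%, against 35.3%). The other 23 members did not pass the filter on low counts. Of these, 9 had no count in any library, and none of the rest had more than 21 counts over the 6 libraries.

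**Figure D1:**
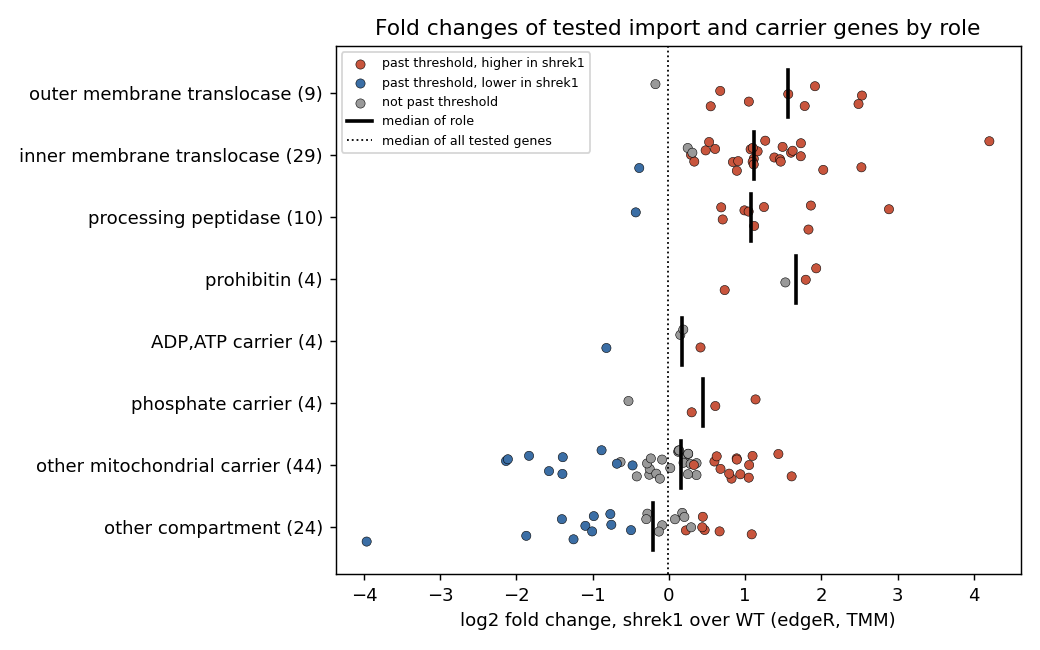
Log2 fold change (shrek1 over WT) of each tested member, in 8 roles, with the number tested in brackets. Points are genes, coloured by whether they passed an adjusted p of 0.05, with random vertical spread. Thick lines are role medians, from 1.66 for the prohibitins to -0.21 for genes named for another compartment, and the dotted line is the median of all tested genes, -0.01.

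The libraries held 17145006 to 20288565 counts. Markers of the embryo and the starchy endosperm moved with genotype. Of 21 embryo marker genes (oil body and globulin storage genes among them), 11 were tested and all 11 fell, and their summed share of counts was 1.11% to 1.37% in WT and 0.0147% to 0.0168% in shrek1. Of 47 zein genes, which mark the starchy endosperm, 43 were tested, 32 fell and 2 rose, and their share was 15.3% to 19.2% in WT and 4.88% to 6.40% in shrek1. Only 2 genes matched the aleurone names searched for. Both rose, with shares of 0.00295% to 0.00412% in WT and 0.0234% to 0.0240% in shrek1, but so few genes do not show whether the aleurone changed. The 4 basal transfer layer markers had shares of 0.000583% to 0.000933% in WT and 0.000266% to 0.00283% in shrek1, and none of the 3 tested passed. With so few counts, these markers do not show whether the transfer layer changed. No count in any shrek1 library was found for 9 embryo, 4 zein and 1 transfer layer marker, and none in any WT library for 10, 4 and 1. Values are relative to all counts of a kernel library, so more cells of a type and more RNA per cell cannot be told apart. The part of these shifts in the member results was not tested.

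As a share of all counts, the 151 genes together held 0.507% ± 0.0406 in WT and 0.713% ± 0.0347 in shrek1 (SD, n = 3 each), and the lowest shrek1 library (0.684%) lay above the highest WT library (0.543%). Outer membrane translocase genes went from 0.0492% ± 0.00518 to 0.118% ± 0.00496 and inner membrane translocase genes from 0.0674% ± 0.00570 to 0.129% ± 0.00374. Processing peptidase genes went from 0.0511% ± 0.00351 to 0.0794% ± 0.00408. The share of ADP,ATP carrier genes was 0.0773% ± 0.00870 and 0.0735% ± 0.00866, with overlapping libraries, and that of genes named for another compartment was 0.0861% ± 0.00483 and 0.0432% ± 0.00247.

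**Figure D2:**
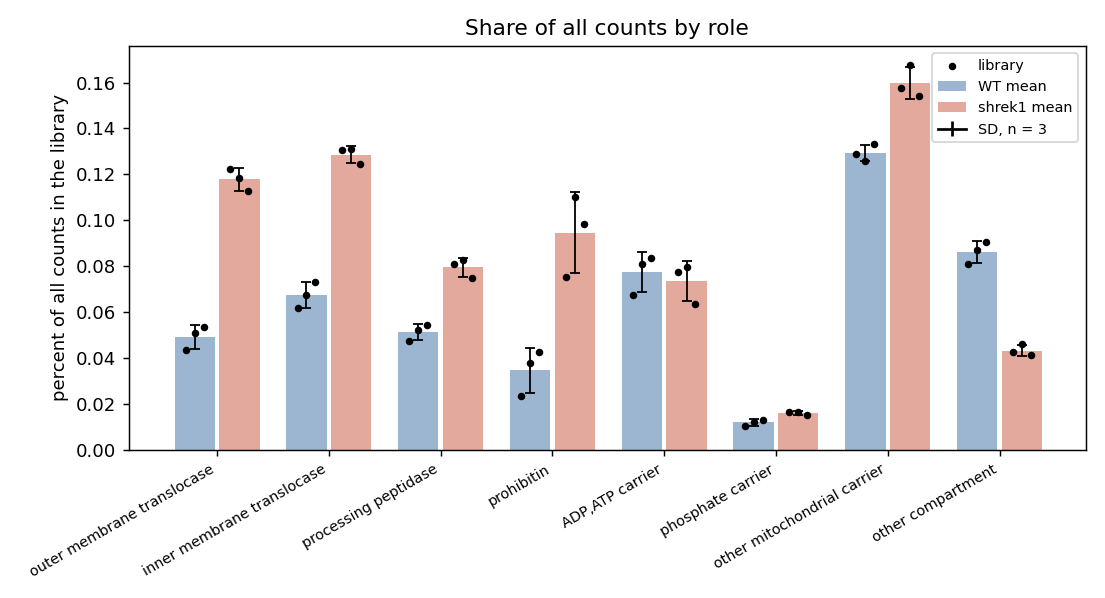
Percent of all counts held by each role in WT and shrek1. Bars are means of 3 libraries, error bars are SD and points are libraries; the libraries of the genotypes do not overlap for 7 roles and do for the ADP,ATP carriers.

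The outer membrane translocase has 12 genes, of which 9 were tested, 8 rose and 1 did not pass. TOM7, a small subunit that modulates assembly of the complex, is encoded by LOC100283851 (chromosome 8, 149290125 to 149290689). It had 78.7, 93.9 and 87.5 CPM in WT and 514, 441 and 504 CPM in shrek1. Every mutant library was far above every WT library, and the log2 fold change was 2.49 ± 0.11 (SE; adjusted p = 7.19e-08), or 5.60-fold. Per length it was also the most abundant member of the role, at 154 ± 16.9 FPKM (fragments per kilobase and depth unit, SD, n = 3) in WT and 843 ± 62.4 FPKM in shrek1.

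TOM5, another small subunit, has a pair of genes on chromosome 1. LOC101027174 had 51.0, 52.0 and 62.3 CPM in WT and 163, 174 and 152 CPM in shrek1 (log2 fold change 1.56 ± 0.10). The other copy, LOC100277202 (160695712 to 160697820), was much rarer, at 1.33, 2.05 and 1.89 CPM in WT and 11.0, 9.64 and 10.1 CPM in shrek1, and rose by 2.53 ± 0.21 (adjusted p = 2.69e-06). The gene of TOM9, the plant form of the central receptor TOM22 (LOC100856982; chromosome 1, 206018720 to 206019476), had 47.6, 54.3 and 53.5 CPM in WT and 198, 186 and 202 CPM in shrek1, a log2 fold change of 1.92 ± 0.09 (adjusted p = 9.88e-08). In these 3 genes the genotypes were well separated.

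TOM20 is a receptor that binds presequences. Its most abundant gene, LOC100281827 (chromosome 3, 162060686 to 162066065), had 88.4, 99.8 and 91.0 CPM in WT and 145, 132 and 132 CPM in shrek1, a smaller change of 0.55 ± 0.09 (adjusted p = 0.000286). That call was lost with an offset for gene length, at 0.20. The second TOM20 gene, LOC100282876, had 44.7 ± 5.36 and 92.5 ± 2.98 CPM (SD, n = 3 each) and a log2 fold change of 1.05 ± 0.10.

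TOM40 forms the channel of the complex, and its 3 tested genes did not move alike. LOC110120361 had 31.9, 42.3 and 42.4 CPM in WT and 135, 136 and 129.7 CPM in shrek1 (1.78 ± 0.12). With the offset for gene length LOC110120361 had the largest increase of the outer membrane genes (2.06), and without the offset TOM5's LOC100277202 did (2.53). LOC100283111 had 29.0 ± 2.25 and 46.3 ± 2.45 CPM (0.67 ± 0.10). LOC100282275 had 47.1, 43.6 and 40.7 CPM in WT and 35.8, 41.3 and 39.2 CPM in shrek1, with overlapping libraries and no call (-0.18 ± 0.10, adjusted p = 0.136). With library size as the only scaling, LOC100282275 was called lower (-0.46, adjusted p = 0.00209), the only gene of the role that was. Summed over the TOM40 genes, CPM was 112 ± 5.37 in WT and 219 ± 6.73 in shrek1, 1.95 times as high. LOC110120361, LOC100283111, LOC100282275, LOC101027174 and LOC100282876 were chosen after their values were seen, to complete the role.

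**Figure D3:**
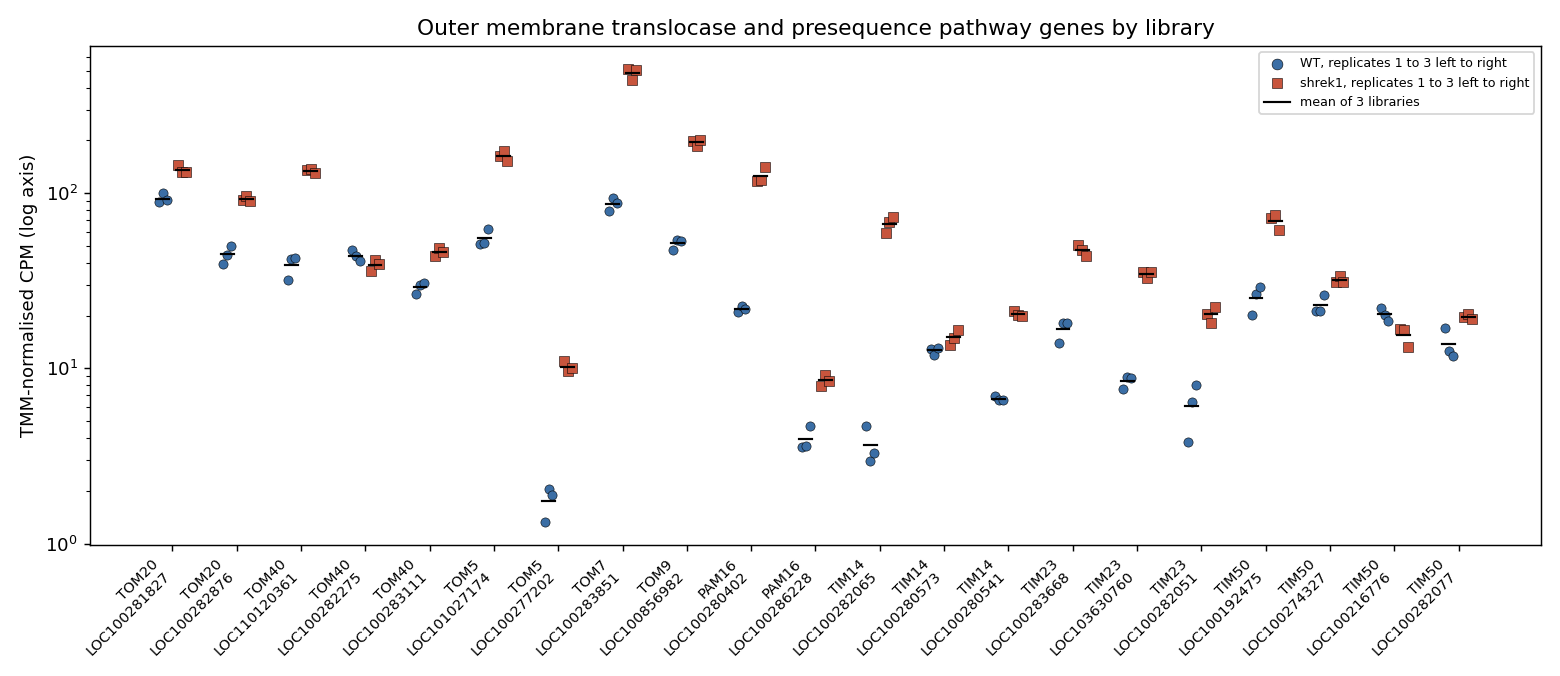
TMM-normalised CPM (log axis) in each library for the tested outer membrane translocase genes and for the PAM16, TIM14, TIM23 and TIM50 genes of the presequence pathway. Points are libraries and lines are means of 3. TOM7 (LOC100283851) has the highest values in shrek1, at 441 to 514 CPM, and a TIM14 gene (LOC100282065) the widest gap, from 2.96 to 4.71 CPM in WT to 59.3 to 73.2 CPM in shrek1.

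The inner membrane translocases have 32 genes, of which 29 were tested, 26 rose, 1 fell and 2 did not pass. The largest change of any member was that of a TIM14 gene, LOC100282065 (chromosome 1, 289992230 to 289993745). TIM14 is the J-protein that stimulates mitochondrial Hsp70 in the import motor. It had 4.71, 2.96 and 3.30 CPM in WT and 59.3, 68.5 and 73.2 CPM in shrek1, an 18.4-fold difference (log2 fold change 4.20 ± 0.17, adjusted p = 5.56e-08). Another TIM14 gene, LOC100280541, had 6.70 ± 0.242 CPM in WT, against 20.3 ± 0.712 CPM in the mutant (SD, n = 3), and rose. The last, LOC100280573, had a log2 fold change of 0.25 ± 0.13 and no call. LOC100280541 and LOC100280573 were chosen after their values were seen. LOC100280573 was the highest of the copies in WT per length, at 11.7 FPKM against 8.41 and 4.48, and the lowest in shrek1, at 13.6 FPKM against 25.04 and 80.9. The order of these copies thus differed between the genotypes.

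PAM16 is the partner of TIM14 that holds it at the channel. Its main gene, LOC100280402 (chromosome 3, 164944291 to 164947409), had 20.9, 22.7 and 21.8 CPM in WT and 117, 119 and 141 CPM in shrek1, with all mutant libraries above WT (2.52 ± 0.10, adjusted p = 4.55e-08). Summed over gene copies, PAM16 was 5.21 times and TIM14 4.45 times as high in shrek1, whereas TIM44, the anchor of Hsp70 at the channel, encoded by LOC100193036 alone, was 1.52 times as high.

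TIM17 and TIM23 form the channel for presequence proteins. The TIM17 gene LOC100279752 (chromosome 7, 173296297 to 173300406) had 32.8, 30.5 and 31.3 CPM in WT and 103, 90.4 and 98.4 CPM in shrek1 (1.62 ± 0.09, adjusted p = 1.91e-07). All 4 TIM17 and all 3 TIM23 genes rose, with summed CPM 2.34 and 3.26 times as high. The TIM23 gene LOC103630760 rose from 8.46 ± 0.710 to 34.5 ± 1.47 CPM.

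TIM50 hands presequences to the channel, and 6 genes carry its name. Of the 4 tested, 3 rose. LOC100192475 had 20.0, 26.6 and 29.1 CPM in WT and 71.9, 75.2 and 61.2 CPM in shrek1 (1.46 ± 0.14). LOC100216776 (chromosome 3, 187820053 to 187828251), the only gene of the role that fell, had 22.2, 20.1 and 18.7 CPM in WT and 16.7, 16.6 and 13.3 CPM in shrek1 (-0.39 ± 0.13, adjusted p = 0.0237), a small gap between genotypes. Its call was lost without WT replicate 2 (-0.40, adjusted p = 0.0508) and without shrek1 replicate 3 (-0.28, adjusted p = 0.0915).

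The small TIM chaperones TIM8, TIM9 and TIM10 and the insertase TIM22 serve carrier proteins. The TIM9 gene LOC100285519 (chromosome 1, 3283974 to 3285633) had 54.9, 62.9 and 66.6 CPM in WT and 132, 137 and 127 CPM in shrek1 (1.10 ± 0.09, adjusted p = 3.38e-06). Summed over copies, TIM8 was 2.36 times, TIM9 2.15 times, TIM10 2.09 times and TIM22 1.997 times as high in shrek1. A TIM10 gene, LOC100282321, was near the threshold at 0.29 ± 0.12 (adjusted p = 0.0477). With the offset for gene length its value was -0.35, past the threshold in the other direction (adjusted p = 0.0235), and with library size only it was -0.00. Its call was also lost with DESeq2 (0.26), with no filter (0.29), without WT replicate 1 (0.13) or 3 (0.25), without shrek1 replicate 1 (0.33), 2 (0.29) or 3 (0.28), and without replicate 1 of both genotypes (0.17). Of the inner membrane genes named, LOC100193036, LOC103630760, LOC100192475 and LOC100282321 were also chosen after their values were seen.

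Genes of these subunits are short, and short genes shifted upward across the whole table. Of all genes tested, those under 700 bases had a median log2 fold change of 0.64, those from 700 to under 1500 bases 0.25 and those of at least 1500 bases -0.14. Members in the same length classes had medians of 1.16, 0.94 and 0.20. An offset that removes the trend with gene length moved the outer membrane translocase median from 1.57 to 0.82 and the inner membrane translocase median from 1.11 to 0.62. With this offset, 7 of 9 outer and 23 of 29 inner membrane translocase genes were higher, and 0 and 2 were lower. In the 10 genes of TOM5, TOM7, TOM9, TIM8, TIM9 and TIM10 the median went from 1.43 to 0.74, and 9 were higher and 1 lower. The processing peptidase genes, at 1.08 and 1.15 with the offset, and the prohibitins, at 1.66 and 1.51, moved little.

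The processing peptidase cuts presequences in the matrix, and in plants its subunits are also the core proteins of respiratory complex III. Of its 15 genes 10 were tested, of which 9 rose and 1 fell. The beta subunit gene LOC100283246 (chromosome 9, 153657483 to 153662742) had 148, 155 and 149 CPM in WT and 245, 249 and 242 CPM in shrek1 (0.71 ± 0.08, adjusted p = 2.75e-05). The alpha subunit gene LOC100280280 (chromosome 6, 171520881 to 171524703) had 95.8, 109 and 111 CPM in WT and 209, 212 and 207 CPM in shrek1 (0.99 ± 0.09). A second alpha gene, LOC100284247 (chromosome 3, 6856559 to 6861196), had 76.0, 74.0 and 77.9 CPM in WT and 169, 163 and 162 CPM in shrek1 (1.12 ± 0.08). These were tight groups with no overlap.

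Summed over genes, CPM of the alpha subunit was 226 ± 10.3 in WT and 457 ± 5.59 in shrek1, and that of the beta subunit 237 ± 9.21 and 420.5 ± 3.88 (SD, n = 3 each). The sums of the genotypes did not overlap for either subunit. Of the beta genes, 3 rarer ones of 962 to 991 bases had larger fold changes. Among them LOC103633975 (chromosome 7, 84874824 to 84877625) had 2.82, 3.31 and 2.59 CPM in WT and 11.98, 7.91 and 11.8 CPM in shrek1 (1.86 ± 0.22, adjusted p = 3.14e-05). The alpha gene LOC100384208 (chromosome 8, 163065368 to 163070271) fell, from 13.2, 14.8 and 13.4 CPM to 10.8, 10.6 and 9.26 CPM (-0.43 ± 0.13, adjusted p = 0.0147). Its adjusted p was 0.0561 without WT replicate 2 (-0.39) and without shrek1 replicate 3 (-0.36).

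All 4 prohibitin genes were tested and 3 rose. LOC541818, matched to Prohibitin-1 (chromosome 1, 303830198 to 303832956), had 104, 108 and 119 CPM in WT and 417, 414 and 431 CPM in shrek1, a log2 fold change of 1.93 ± 0.09 (adjusted p = 1.04e-07). LOC541816, matched to Prohibitin-3 (chromosome 10, 125740096 to 125741421), had 89.0, 108 and 109.7 CPM in WT and 365, 363 and 335 CPM in shrek1 (1.79 ± 0.11). Both genes were separated between genotypes by more than 3-fold. A second Prohibitin-3 gene, LOC541817, was rarer and rose from 10.6 ± 0.805 to 17.5 ± 2.51 CPM (0.73 ± 0.14), and was chosen after its values were seen.

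The last prohibitin gene varied with the replicate number rather than only with genotype. LOC542542, matched to Prohibitin-2 (chromosome 2, 175288268 to 175293487), had 18.3, 118 and 127 CPM in WT and 21.1, 381 and 361 CPM in shrek1. Replicate 1 was thus the low library in both genotypes, and the gene did not pass (1.53 ± 1.27, adjusted p = 0.345). With the replicate number as a block it passed, at 1.19 and adjusted p = 0.0216. Without replicate 1 of both genotypes it stood at 1.53 with adjusted p = 2.46e-05. That setting was added after the data were seen. It drops the very libraries in which this gene was low, so its p cannot be set beside that of the main fit. Among the 22681 genes tested, 3 had both replicate 1 libraries at least 4-fold below each other library. No gene had both replicate 1 libraries at least 4-fold above the rest. The other prohibitin genes had no such gap in replicate 1, and the cause was not tested.

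**Figure D4:**
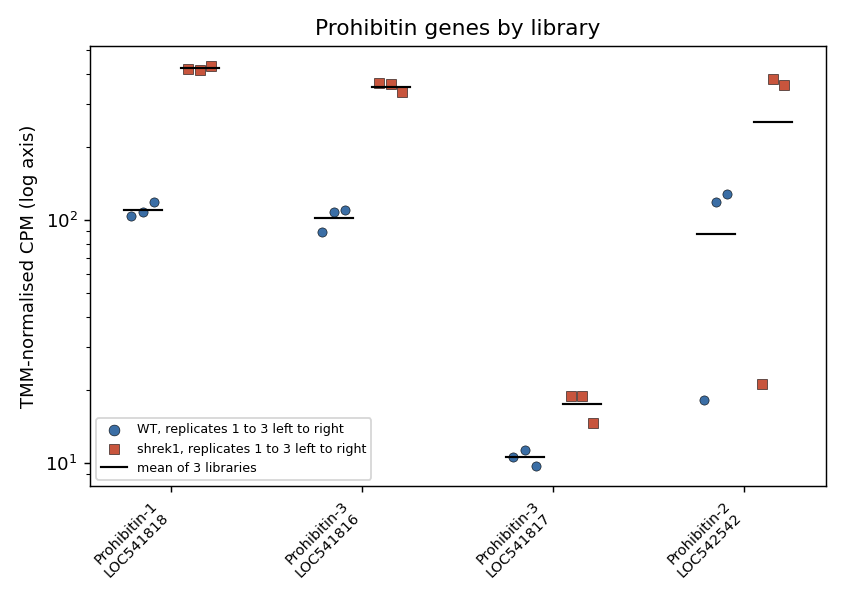
TMM-normalised CPM (log axis) of the 4 prohibitin genes in each library, replicates 1 to 3 from left to right. In LOC542542 replicate 1 is at 18.3 CPM in WT and 21.1 CPM in shrek1, below the other libraries of both genotypes, while LOC541818 and LOC541816 have no overlap between genotypes.

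Of the 5 ADP,ATP carrier genes 4 were tested, 1 rose, 1 fell and 2 did not pass. The protein exports ATP made by respiration in exchange for ADP. Its gene LOC542386 (chromosome 5, 211585580 to 211588905) had 308, 368 and 348 CPM in WT and 411, 384 and 341 CPM in shrek1, with overlapping libraries and no call (0.15 ± 0.11, adjusted p = 0.244). LOC100284305 (chromosome 1, 5897010 to 5900799) had 168, 191 and 200.1 CPM in WT and 205, 223 and 209 CPM in shrek1 and did not pass either (0.19 ± 0.09, adjusted p = 0.101). Both stood below 0 with library size only, at -0.14 and -0.10.

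LOC542389 (chromosome 4, 168844966 to 168847863), the remaining abundant ADP,ATP carrier gene, had 152, 168 and 159 CPM in WT and 223, 236 and 180.3 CPM in shrek1, above WT in all mutant libraries (0.41 ± 0.11, adjusted p = 0.00713). That call was lost with library size only (0.13), without WT replicate 1 (0.31, adjusted p = 0.0517), without WT replicate 3 (0.36, adjusted p = 0.0508) and without replicate 1 of both genotypes (0.28, adjusted p = 0.117). LOC103630666 (chromosome 6, 173150567 to 173153443), described as a probable ADP,ATP carrier, fell from 11.2, 11.8 and 12.1 CPM to 5.56, 7.36 and 6.97 CPM (-0.82 ± 0.16, adjusted p = 0.00101). The gene for the carrier ADNT1, which in Arabidopsis exchanges AMP and ATP (LOC100191302), was chosen after its values were seen and rose from 92.8 ± 5.07 to 199 ± 6.41 CPM (1.10 ± 0.08).

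Genes named for the plastid ADP,ATP carrier moved downward. This protein, which is not related to the mitochondrial carriers in sequence, brings cytosolic ATP into plastids, and its role is best known from Arabidopsis and potato. LOC100272602 (chromosome 5, 160754150 to 160757515) had 243, 280.3 and 245 CPM in WT and 14.6, 18.7 and 16.0 CPM in shrek1, 15.6-fold lower, and had the largest decrease of all members (-3.96 ± 0.12, adjusted p = 1.24e-08). LOC100281461 (chromosome 3, 220144785 to 220150826) had 55.5, 61.7 and 67.7 CPM in WT and 29.0, 30.2 and 27.4 CPM in shrek1 (-1.10 ± 0.10). LOC103637385, chosen after its values were seen, had 29.8, 32.0 and 26.7 CPM in WT and 9.38, 7.73 and 7.08 CPM in shrek1 (-1.87 ± 0.14). None of these 3 genes had overlapping genotypes.

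The thylakoid ADP,ATP carrier gene LOC100283930 had 27.5 ± 1.26 CPM in WT and 37.3 ± 2.72 CPM in shrek1 and passed as higher (0.44 ± 0.10, adjusted p = 0.0027). That call was lost with library size only (0.15, adjusted p = 0.229), and the gene was chosen after its values were seen. Without LOC100272602 and the other genes named for another compartment, the members counted 64 higher and 12 lower of 104 tested.

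**Figure D5:**
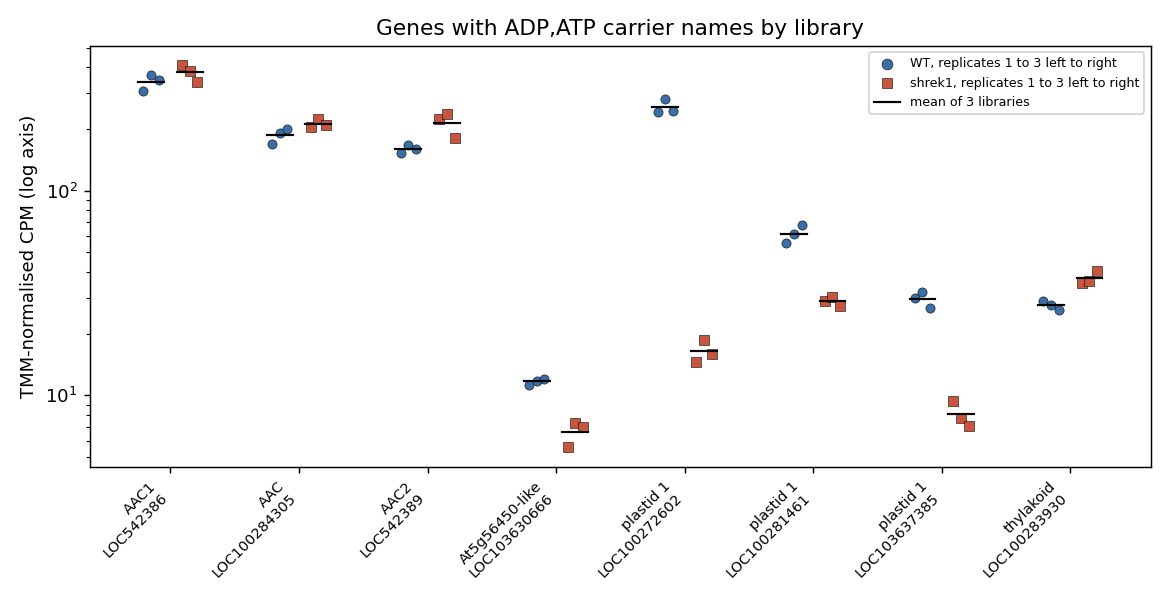
TMM-normalised CPM (log axis) in each library of genes with ADP,ATP carrier names: 4 named for the mitochondrion or without a compartment on the left, 3 for the plastid and 1 for the thylakoid on the right. Points are libraries and lines are means of 3. The plastid gene LOC100272602 goes from 243 to 280.3 CPM in WT to 14.6 to 18.7 CPM in shrek1, whereas LOC542386 overlaps between genotypes.

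The phosphate carrier supplies phosphate for ATP synthesis. Of its 6 genes 4 were tested, 3 rose and 1 did not pass. LOC103627788 (chromosome 5, 218568171 to 218572695) had 40.4, 40.8 and 44.9 CPM in WT and 93.3, 94.4 and 89.4 CPM in shrek1 (1.14 ± 0.08, adjusted p = 1.2e-06). LOC541617 starts 51928 bases away, with 2 annotated genes between. It had 39.2, 49.2 and 49.8 CPM in WT and 60.1, 53.5 and 56.4 CPM in shrek1 (0.30 ± 0.11, adjusted p = 0.0323), so these neighbouring copies had similar WT levels and different levels in shrek1. The call of LOC541617 was lost with library size only (0.01), DESeq2 (0.27), the gene length offset (0.22), without WT replicate 1 (0.12) or 3 (0.30), without shrek1 replicate 1 (0.26) or 3 (0.31), and without replicate 1 of both genotypes (0.09). LOC100502457 (chromosome 1, 37811548 to 37819803) had 17.8, 18.7 and 16.3 CPM in WT and 26.6, 27.9 and 26.1 CPM in shrek1 (0.61 ± 0.11).

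Of 50 other mitochondrial carrier genes 44 were tested, 14 rose, 9 fell and 21 did not pass. The share that rose was near the 32.0% of all genes tested, and the share that fell was below their 32.4%. These 50 include 2 genes whose protein names are not those of carriers, LOC103649787 (nuclear pore protein NUP43, no counts) and LOC103636194 (a receptor-like kinase name, tested, not past the threshold). With library size only 11 rose and 16 fell, and their median went from 0.16 to -0.13, where the median of all genes went from -0.01 to -0.30. The most abundant are a pair on chromosome 6 for the dicarboxylate/tricarboxylate carrier, which exchanges organic acids such as 2-oxoglutarate, malate and citrate. LOC100274318 (142054466 to 142058298) had 268, 221 and 209.9 CPM in WT and 421, 444 and 472 CPM in shrek1 (0.94 ± 0.11, adjusted p = 3.84e-05). LOC100500990 (142106102 to 142109697) had 272, 231 and 209.8 CPM in WT and 395, 415 and 423 CPM in shrek1 (0.79 ± 0.11, adjusted p = 0.000111). Their starts are 51636 bases apart, with 1 annotated gene between, and their values ran close in every library. If the copies share reads, their counts are uncertain, which was not tested.

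The uncoupling protein gene LOC542748 (chromosome 4, 560620 to 564273) had 147, 146 and 145 CPM in WT and 137, 158 and 149 CPM in shrek1 (0.02 ± 0.09, adjusted p = 0.868) and its libraries overlapped. LOC100282042 (chromosome 1, 25946403 to 25951203), matched to a substrate carrier of family E, had 14.4, 13.7 and 15.2 CPM in WT and 43.7, 44.9 and 43.6 CPM in shrek1, and had the largest increase of the carriers (1.61 ± 0.10, adjusted p = 3.53e-07). Genes matched to MTM1, named in yeast as a manganese trafficking factor, went both ways. LOC100502509 (chromosome 1, 221554717 to 221565450) fell from 8.80, 12.3 and 12.5 CPM to 5.90, 6.06 and 6.28 CPM (-0.88 ± 0.18, adjusted p = 0.0013), and LOC100284060 rose by 0.60 ± 0.13. The rise was not called with library size only (0.31, adjusted p = 0.089). The rarer MTM1 gene LOC100283984 fell from 7.51 ± 1.18 to 1.70 ± 0.712 CPM (-2.14 ± 0.29). LOC100284060 and LOC100283984 were chosen after their values were seen.

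Among the remaining genes named for another compartment, LOC100304358 (chromosome 9, 89409687 to 89413085) was matched to the adenine nucleotide transporter BT1. The name of BT1 lists the mitochondrion as well as plastids, and any gene with a plastid word was put in this group. LOC100304358 had 132, 125 and 135 CPM in WT and 147, 162 and 149 CPM in shrek1 (0.22 ± 0.08, adjusted p = 0.0371). Its call was kept only with the gene length offset. It was lost under all other alternatives, among them without WT replicate 1 (0.15), WT replicate 2 (0.19), WT replicate 3 (0.19), shrek1 replicate 1 (0.26), shrek1 replicate 2 (0.19) or shrek1 replicate 3 (0.25), and it stood at -0.06 with library size only. A TIM22-like gene described as chloroplastic, LOC103629105 (chromosome 6, 28078908 to 28087537), rose from 7.81, 8.71 and 8.11 CPM to 19.0, 15.3 and 17.9 CPM (1.09 ± 0.14). In this group the word search also caught unrelated names, among them a peroxisomal insulin-degrading enzyme gene, LOC103636601, which fell from 38.9 ± 6.82 to 19.4 ± 0.991 CPM (-1.01 ± 0.13), and a pair of erlin genes, LOC100273090 at -0.77 ± 0.14 and LOC100382287 at 0.47 ± 0.12. The call of LOC100382287 was lost with library size only (0.18, adjusted p = 0.255) and without replicate 1 of both genotypes (0.32, adjusted p = 0.091). These 3 were chosen after their values were seen.

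Other genes of the pathway, not caught by the word search, were counted from lists of names. Of 54 genes for matrix folding partners, inner membrane proteases and assembly factors, 49 were tested, 28 rose and 7 fell, and the median was 0.45. The list holds 2 genes of T-complex protein 1, a cytosolic chaperonin, of which LOC103635420 rose, and without them 27 rose and 7 fell of 47 tested. The chaperonins that fold imported proteins had the largest increases, with CPN60-1 (LOC542736) at 106 ± 2.81 CPM in WT and 459.9 ± 86.3 CPM in shrek1 and a 10 kDa chaperonin gene (LOC100193174) at 22.9 ± 2.26 and 161 ± 15.5 CPM. All 3 mitochondrial Hsp70 genes rose, the motor partner of TIM14, among them LOC100285374 from 97.1 ± 9.22 to 173 ± 14.6 CPM. METAXIN (LOC100381687), a part of the outer membrane assembly machinery, rose from 30.9 ± 0.630 to 88.0 ± 3.22 CPM, and SAM50 (LOC100216624), the core of the same machinery, fell from 13.7 ± 0.874 to 9.73 ± 1.28 CPM (-0.49 ± 0.14). The 4 genes matched to proteolytic subunit 2 of the Clp protease went both ways. LOC100284276 fell by 1.63 ± 0.14 on the log2 scale, and LOC100284211 rose by 0.97 ± 0.09. LOC100273342 was called higher at 0.33 ± 0.11, a call lost with the gene length offset (0.19), under library size scaling (0.04), without WT replicate 2 (0.25) or 3 (0.30) and without shrek1 replicate 2 (0.31), and LOC100280963 had 0.22 ± 0.15 and no call.

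Of 40 genes for other transporters 28 were tested, 9 rose and 8 fell, with a median of -0.06. Over all genes tested 32.0% rose and 32.4% fell, so this list moved about as often as genes in general. Porins are pores for small molecules in the outer membrane. Of 9 mitochondrial porin genes 8 were tested, 4 rose, 2 fell and 2 did not pass. LOC542622 (porin 1) rose from 87.4 ± 8.95 to 169.9 ± 14.1 CPM and LOC541796 (porin 2) from 60.7 ± 12.9 to 124 ± 14.1 CPM. Another porin 2 gene, LOC100285974, fell from 2.95 ± 0.262 to 0.505 ± 0.172 CPM (-2.52 ± 0.36). LOC100281372 (porin 6) was called lower at -0.55 ± 0.22, a call lost with the replicate block (-0.56), without WT replicate 2 (-0.49) or 3 (-0.53) and without shrek1 replicate 2 (-0.40) or 3 (-0.45). The list also holds organic cation transporters and anion channels that share its wording, and 5 of the 8 genes that fell were organic cation/carnitine transporters. Among all 729 other tested protein-coding genes with mitochondrial names, 374 rose and 124 fell, with a median of 0.41. All genes of the last 2 paragraphs that are named were chosen after their values were seen.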

How the data were processed

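Total RNA of 6 kernel libraries was sequenced from a directional kit, per the labels' protocols. The authors deposited raw read counts per gene and, beside them, FPKM values, which were proportional to count over gene length in each library. HISAT2 2.0.5 and featureCounts 1.5.0-p3 are named in the submitters' processing notes. The sources used here give neither the genome build nor the strand setting of counting, so overlapping genes and near-identical copies are uncertain. Of the 151 members, 140 have the same start in RefSeq's table of Zm-B73-REFERENCE-NAM-5.0, and coordinates are those of the deposited table.

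Counts were filtered with filterByExpr, scaled by TMM and tested across all genes with edgeR 4.0.16 (R 4.3.3; quasi-likelihood test of genotype, Benjamini-Hochberg adjusted p under 0.05), on the 6 libraries with no covariate. Errors of log2 fold changes are SE, calculated back from the test as the absolute log2 fold change over the square root of its F statistic. Other errors are SD (n = 3). FPKM was used only to compare genes. The fitting code was also run on simulated counts in which few genes changed, evenly up and down. In these data most genes tested passed, so that run does not check the scaling used here. Members were given 8 roles by words in their names. The genes described by rule were, within each role, those with the largest called change in each direction among genes averaging 10 CPM or more in whichever genotype was higher, and the 3 with the highest mean CPM; other genes are said to be chosen after their values were seen. Members and lists were chosen with earlier results of these data known. Alternatives were library size scaling, DESeq2 1.42.0, no filter, an offset for gene length, a replicate block, leaving out each library and members named for the mitochondrion only. Leaving out replicate 1 of both genotypes was added after the data were seen.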

Additional observations from a re-analysis of the deposited data

How the results depend on the processing

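The median log2 fold change of the tested members, 0.44, was 0.15 with library size only, 0.67 for members named for the mitochondrion only (64 higher and 12 lower), 0.39 without replicate 1 of both genotypes, and 0.37 to 0.51 when each library was left out. That of all tested genes, -0.01, was -0.30 with library size only, -0.0580 with DESeq2, -0.0347 with no filter, -0.0631 without replicate 1 of both genotypes and -0.0692 to -0.0220 when each library was left out. Library size only gave 4994 genes higher and 9682 lower (7264 and 7345 with TMM) and 56 and 33 members. Leaving out each library gave 63 to 68 members higher and 18 to 25 lower. Of the 92 members called, 78 kept their call with library size only, 87 with DESeq2, 90 with no filter, 86 with the gene length offset (1 other was called in the opposite direction) and 83 to 87 when each library was left out. Among the members described in the report, and all members called, the following changed sign. LOC100282321 stood at -0.00146 with library size only and -0.35 with the length offset. LOC100273617, a TIM22 gene at 0.33, stood at -0.0327 with the length offset. LOC100280573 stood at -0.0444 with library size only and -0.0424 with the length offset. LOC542386 stood at -0.14 with library size only and -0.0464 without replicate 1 of both genotypes. With library size only LOC100284305 stood at -0.10 and LOC100304358 at -0.0639. LOC103636194, at 0.13, stood at -0.16 with library size only and -0.0471 without shrek1 replicate 3. LOC542748 stood at -0.27 with library size only, -0.00983 with DESeq2 and -0.10 with the length offset. When each library was left out LOC542748 stood at -0.0522 to 0.0794, below 0 without WT replicate 1, WT replicate 3 or shrek1 replicate 2. The cause of these changes was not tested. The sources used here do not say whether replicate numbers pair the libraries. Deviations of same-numbered libraries correlated at 0.0896, -0.0523 and 0.0296, and those of other pairs at -0.0938 to 0.0547. Such weak correlations do not decide it. With the replicate block 7150 genes were higher and 7198 lower, and 70 and 23 members, with a median of 0.44. Depth of 17145006 to 20288565 counts limits the members of few counts, 23 of which were not tested.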
